A study of Mus musculus with 6 samples.

Results

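The Il1rl1 Cxcl5 cells are Dcn-positive mammary cells of C3(1)-Tag mice that carried transcripts of both Il1rl1 and Cxcl5. Il1rl1 is the gene of the IL-33 receptor, and Cxcl5 is the gene of a neutrophil-attracting chemokine. A cell was chosen if it had at least 200 detected genes and under 10% mitochondrial UMIs (unique molecular identifiers, each standing for 1 counted transcript). It also needed at least 2 UMIs of Dcn (decorin, a fibroblast proteoglycan) and none of Epcam, Ptprc or Pecam1, which mark epithelial cells, leukocytes and endothelial cells. Finally it needed at least 1 UMI each of Il1rl1 and Cxcl5 and at most 2 detected genes from each of 3 fibroblast lists. These were a matrix list (Crabp1, Mmp11, Cthrc1, Spon1, Lrrc15), an adventitial list (Pi16, Dpt, Prg4, Ptgis, Fndc1, Akr1c18) and an Il33 list (Cpxm1, Il33, Cyp7b1, Tmem45a, Fgf7). The rule found 721 cells among 5715 Dcn-positive cells (12.6%) and 22244 cells kept in all.

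Fibroblasts build the collagen matrix of the mammary gland, and they also signal to immune cells. Il1rl1 encodes the receptor that, with its partner Il1rap, responds to IL-33, an alarm cytokine released from damaged stromal and epithelial cells. Cxcl1, Cxcl2, Cxcl3 and Cxcl5 bind a shared receptor on neutrophils, while Ccl2 and Ccl7 draw monocytes, and these chemokine genes are classical targets of NF-kB signalling.

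The 6 single-cell libraries came from female C3(1)-Tag mice on the FVB/NJ background, a model whose transgene places SV40 large T antigen under the C3(1) promoter. Prepuberty libraries (n = 2) were made from whole glands at 5 weeks of age, DCIS libraries (n = 2) from 14-week glands with in situ lesions, and Tumor libraries (n = 2) from masses that could be felt, taken after 18 weeks. All 3 states carry the transgene, so no library shows a gland without it. The labels do not say whether the 2 libraries of a state came from separate animals, so a p-value describes the spread between libraries, which may be technical.

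The libraries held 2606 to 4476 kept cells and 29652183 to 60741860 UMIs. Age, state and, by the study's methods, the dissociation of tumours changed together and cannot be told apart, and those methods also name another library kit for Tumor 2. Library pairs shared 8 to 35 barcodes of kept cells, but no chosen cell.

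The rule selected unevenly across the libraries. Prepuberty 1 and Prepuberty 2 held 258 and 312 chosen cells, DCIS 1 and DCIS 2 held 27 and 109, Tumor 1 held 0 and Tumor 2 held 15. Nearly all of the cells, 706 of 721, therefore came from the 4 glands. Their 8034636 UMIs were also uneven, from 198854 in DCIS 1 to 3540925 in Prepuberty 2.

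The values that chose the cells are given as a description. Il1rl1 was counted at 1363, 1505, 1665 and 1668 CPM (UMIs per 1000000 UMIs of the summed cells) in the chosen cells of Prepuberty 1, Prepuberty 2, DCIS 1 and DCIS 2, and Cxcl5 at 1801, 5597, 845 and 2565 CPM. Of the chosen cells, 127 had exactly 1 Il1rl1 UMI, 160 had exactly 1 Cxcl5 UMI and 34 had exactly 1 of both. Just outside the rule lay 522 cells low in the 3 lists with Il1rl1 but no Cxcl5 UMI and 783 with Cxcl5 but no Il1rl1 UMI. Another 748 cells held both genes and were set aside because they had 3 or more genes of at least 1 list, most often the adventitial list (471 cells) or the Il33 list (380 cells). Il1rl1 and Cxcl5 transcripts were thus common beyond the chosen cells, which held 27.9%, 46.7%, 11.3% and 26.4% of the Il1rl1 UMIs of all Dcn-positive cells in the 4 glands.

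A single UMI can be free RNA rather than expression, so the same genes were read in cells that should lack them. With every cell thinned to 3000 UMIs, Cxcl5 was seen in 8.68% and 11.8% of endothelial cells of Prepuberty 1 and Prepuberty 2 and in 36.4% and 65.3% of Dcn-positive cells. Before thinning the endothelial shares were 22.2% and 36.7%, at median depths of 7876 and 10965 UMIs, and the Dcn-positive shares were 51.2% and 72.6% at 10618 and 9658 UMIs. Both genes together were seen in 0 of 242 and 0 of 331 thinned endothelial cells of these libraries. Before thinning 2.18% and 2.24% of endothelial cells and 29.1% and 33.9% of Dcn-positive cells held both. Thinned leukocytes were few, 6 and 14 cells, and held Cxcl5 in 33.3% and 28.6% and both genes in 0% and 7.14%. Thinned epithelial cells of these libraries held Cxcl5 in 9.81% and 10.3% and both genes in 0% and 0%. Dcn-positive cells of the 2 Prepuberty libraries thus stood above the endothelial share. In DCIS 1 and 2 the endothelial share with Cxcl5 was lower, at 3.30% and 7.35% (thinned 1.04% and 3.21%). Dcn-positive cells there held it in 31.3% and 41.8% (thinned 26.3% and 35.6%). An Il1rl1 UMI was seen in 8.36% and 4.76% of Prepuberty and in 0.943% and 0.980% of DCIS endothelial cells. In the tumours a Cxcl5 UMI was found in 0 of 52 and 0 of 21 endothelial cells, which allows shares of up to 5.77% and 14.3%. Epithelial cells of the tumours did hold it. It was seen in 11.8% of epithelial cells and 12.8% of Dcn-positive cells of Tumor 1 (thinned 3.16% and 4.49%), and in 8.80% and 14.4% in Tumor 2 (thinned 2.81% and 6.06%).

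The chosen cells made up a larger share of the Dcn-positive cells in both Prepuberty libraries than in any other library. The share was 12.9% in Prepuberty 1 (95% Wilson interval 11.5 to 14.4) and 18.8% in Prepuberty 2 (17.0 to 20.7). In the DCIS glands it was 4.95% (3.42 to 7.10) and 9.19% (7.68 to 10.97), and in Tumor 2 it was 6.76% (4.14 to 10.8). Tumor 1 had 0 of 94 Dcn-positive cells, which allows a share of up to 3.19% when 3 counts are taken as the limit of a count of 0 (Wilson upper limit 3.93%). These intervals and limits cover counting error only.

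By state the mean share was 15.8% ± 4.18 (SD, n = 2 libraries) in Prepuberty, 7.07% ± 3.002 in DCIS and 3.38% ± 4.78 in Tumor. The difference of DCIS minus Prepuberty was -8.75 percentage points (exact two-sided permutation p = 0.333, the smallest that 2 against 2 libraries can give, adjusted p = 0.444). The Tumor mean was the lowest, with differences of -12.4 points to Prepuberty (exact permutation p = 0.333) and -3.69 points to DCIS (exact permutation p = 0.667). Without Tumor 1, which had no chosen cell, the difference to DCIS was -0.31 points. Against the 4 glands together the difference of Tumor was -8.07 points (exact permutation p = 0.2, where 0.0667 is the smallest possible). None of the 4 differences passed, and with so few libraries none could have. In these shares, fewer such cells, less RNA of the 2 genes per cell and less free RNA of them cannot be told apart.

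Depth also entered the rule. The chosen cells had a median of 12058 and 11289 UMIs in Prepuberty 1 and 2 against 6890 and 7195 in DCIS 1 and 2. In the other Dcn-positive cells the medians were 10353, 9331, 7784 and 6891 UMIs. Thinned to 3000 UMIs before the rule was applied, the shares became 13.5%, 23.3%, 8.82%, 13.0%, 0% and 2.91% in library order. Tumor 2, whose 15 cells had a median of 28947 UMIs, then moved below both DCIS glands.

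**Figure D1:**
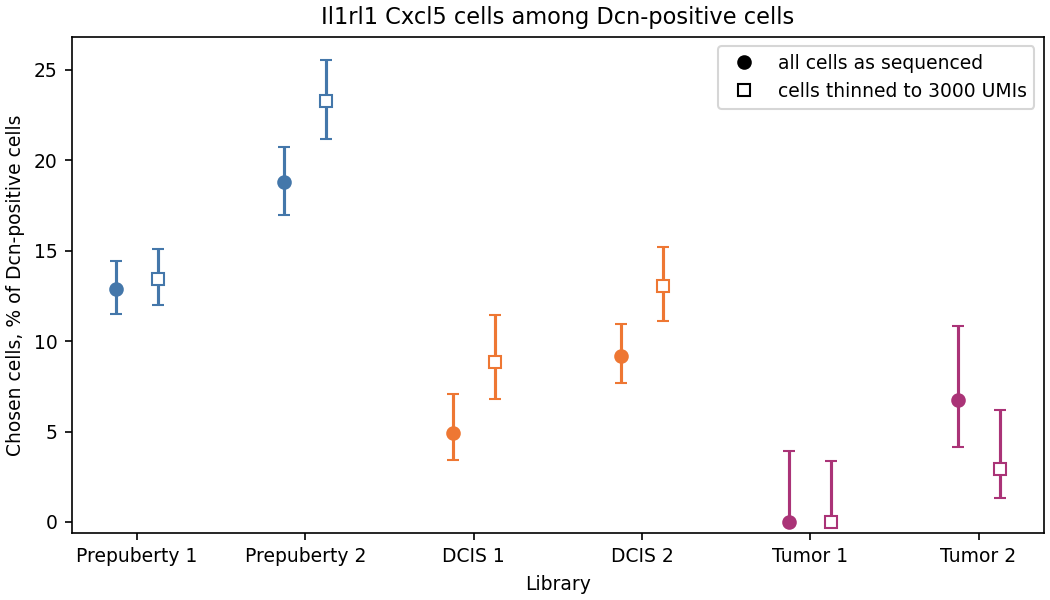
Share of Il1rl1 Cxcl5 cells among the Dcn-positive cells (y axis, percent) in each library (x axis), with filled circles for cells as sequenced, open squares for cells thinned to 3000 UMIs, and 95% Wilson intervals for counting error as bars. As sequenced, the 2 Prepuberty libraries, at 12.9% and 18.8%, lie above the 2 DCIS libraries, at 4.95% and 9.19%. Thinned, Prepuberty 1 at 13.5% and DCIS 2 at 13.0% have overlapping intervals.

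The stromal identity of the cells was read from markers that the rule did not use. Pdgfra, a growth factor receptor of fibroblasts, was at 500, 360, 226 and 333 CPM in the chosen cells of the 4 glands and at 429, 315, 299 and 265 CPM in the other Dcn-positive cells. Without Dcn, a gene of the rule, the list of general fibroblast markers held 11 genes. None of the 11 was at 0 in any gland, and they summed to 3954 to 6550 CPM there. In the other Dcn-positive cells of the glands that sum was higher, 7804 to 11173 CPM. The chosen cells thus carried the general fibroblast markers at a lower summed level.

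Markers of other cell types were also counted. Summed over the 16 leukocyte markers, the chosen cells of the glands had 15.3 to 111 CPM against 32.9 to 113 CPM in other Dcn-positive cells, and Cd3g, Cd3d, Cd79a, Cpa3 and Mcpt4 were at 0 in all 4. The 8 endothelial markers summed to 10.1 to 28.3 CPM against 21.6 to 30.1 CPM, with Pecam1, Epcam and Ptprc at 0 by the rule. The 12 epithelial markers summed to 118, 68.6, 121 and 199 CPM in the chosen cells of Prepuberty 1, Prepuberty 2, DCIS 1 and DCIS 2 against 147, 168, 167 and 159 CPM, higher in the chosen cells of DCIS 2 alone. The 6 adipocyte markers were the highest of these lists, at 298, 179, 533 and 236 CPM against 307, 214, 194 and 393 CPM, and 3 to 5 of the 6 genes were at 0 in the chosen cells of each gland. Their part in the results was not tested. T-antigen UMIs were found in 1 of the chosen gland cells. A doublet score marked 21 of the 721 cells.

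The label given to these cells names 5 markers, and 3 of them were not part of the rule. Ccl7, a monocyte chemokine, was at 6519, 7918, 10742 and 3652 CPM in the chosen cells of Prepuberty 1, Prepuberty 2, DCIS 1 and DCIS 2, against 4087, 6411, 5162 and 2277 CPM in the other Dcn-positive cells. It was higher in the chosen cells of all 4 glands, by 0.30 to 1.06 on the log2 scale. In Tumor 2 the 15 chosen cells had no Ccl7 UMI, which allows up to 7.15 CPM.

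Mmp3 (stromelysin, a matrix-degrading protease) and Thbs2 (thrombospondin, a matrix glycoprotein) did not mark the chosen cells. Mmp3 was at 2191, 1363, 4018 and 3799 CPM in them and at 1874, 1975, 4311 and 4751 CPM in the other cells, so that it was lower in 3 of 4 glands. Thbs2 was at 1660, 350, 387 and 227 CPM against 1207, 212, 486 and 309 CPM, higher in the Prepuberty and lower in the DCIS glands. The name was therefore kept to the genes of the rule, Il1rl1 and Cxcl5, with no claim on Mmp3 or Thbs2.

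Levels also varied from cell to cell. In Prepuberty 2, Ccl7 was seen in 98.7% of the chosen cells, with a median of 65.3 per 10000 UMIs and quartiles of 27.6 and 109. Mmp3 was seen in 52.2% of the same cells and was concentrated in a few of them, since the 32 cells with the most Mmp3 held 79.9% of its UMIs. Ptgs2 was seen in 9.62% of them, and in 36.7% of the chosen cells of DCIS 2.

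Because the cells were chosen on UMIs of the same cells, they were compared with the other Dcn-positive cells of their own library as log2 ratios of CPM (0.5 CPM added), with no test. The 5 libraries with at least 10 chosen cells entered. No gene outside the rule was at least 2-fold higher in every library (0% of 18726 genes measured), and 35 genes (0.187%) were at least 2-fold lower in every library. A smaller difference of 1 direction in all 5 libraries was common, with 331 of 13050 genes above 1 CPM (2.54%) higher and 1725 (13.2%) lower.

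Nrg1 (neuregulin, a ligand of ERBB receptors) had the largest median ratio, 1.63, among genes with 1 sign in every library and a mean of at least 50 CPM in the higher set. It met that level only in the chosen cells (mean 60.03 CPM, against 17.99 CPM in the others). It was at 29.3, 24.6, 95.5, 45.9 and 105 CPM in the chosen cells of Prepuberty 1 and 2, DCIS 1 and 2 and Tumor 2, against 17.0, 12.0, 25.9, 14.5 and 20.6 CPM. The chosen cells were above the other cells in each of the 5 libraries, but the 2 sets overlapped across libraries. Cxcl2 followed with a median ratio of 0.94 and Cxcl1 had 0.70. In the same library order the ratios were 0.57, 0.095, 1.40, 0.94 and 4.48 for Cxcl2. For Cxcl1 they were 0.36, 0.19, 0.80, 0.70 and 3.74, so both were smallest in Prepuberty 2 and largest in Tumor 2. Against the narrower set of 2527 cells that were equally low in the 3 lists but lacked Il1rl1 or Cxcl5, the median ratio of Nrg1 was 1.18, that of Cxcl2 was 0.96 and that of Cxcl1 was 0.64. Cxcl2 was then higher in 4 of 5 libraries, and Nrg1 and Cxcl1 in all 5.

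Of the CC chemokines 0 of 11, and of the growth factors 1 of 15, were higher in all 5 libraries, with list medians of -0.42 and -0.08, beside 2.54% of all genes. In the chosen cells of Tumor 2, 8 of the 11 CC chemokines had no UMI. Their sum in the glands was higher in the chosen cells of each library, at 24131, 25607, 45078 and 21659 CPM against 16928, 21120, 23368 and 11772 CPM, most of it Ccl2 and Ccl7. The other named genes that were higher had varied functions. Glrx (glutaredoxin, which reduces protein thiols) had a median ratio of 0.85, Gsta4 (a glutathione transferase) had 0.63 and Abcc1 (an exporter of glutathione conjugates) had 0.68. Hmga2, a chromatin protein of growing mesenchymal cells, had 0.90, although its level ranged from 5.03 CPM in DCIS 1 to 138 CPM in Prepuberty 2. Mettl1 (an RNA methyltransferase), Ddx21 (a nucleolar helicase) and Mthfd2 (a mitochondrial enzyme of folate metabolism) had 0.56, 0.55 and 0.52. The list of 12 NRF2 and glutathione genes, which holds Gsta4, had a median of 0.09, with 1 gene higher and 1 lower in all 5 libraries.

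Of the 10 genes named as lower, 3 encode structural matrix. Col1a1, which encodes the main chain of type I collagen, was at 488, 38.1, 90.5, 28.5 and 114 CPM in the chosen cells and at 733, 176, 1011, 331 and 1232 CPM in the other Dcn-positive cells (median ratio -3.42). The chosen cells were below in every library, least so in Prepuberty 1, where the ratio was -0.59 and that of Col3a1 -0.61. Col3a1 had -2.28 and Eln (elastin) had -3.28. Of 17 collagens, 13 were lower in all 5 libraries, 1 (Col7a1) was at least 2-fold lower in each, and none was higher in all, beside 13.2%, 0.187% and 2.54% of all genes. The median over the collagens was -1.07, beside -0.11 over all genes, and against the narrower set it was -0.67. The rule limits the genes of the matrix list in the chosen cells, and the part of that limit in these values was not tested.

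Saa3, an acute phase protein, was at 2360, 543, 412 and 1098 CPM in the chosen cells of the 4 glands against 5445, 5426, 2297 and 7222 CPM (median ratio -2.72). In Tumor 2 it had no UMI in the chosen cells and was at 45.1 CPM in the others. It was at least 2-fold lower in all 5 libraries, as was Lbp, another acute phase gene outside the lists that was chosen after its values were seen. Of 13 acute phase and complement genes 10 were lower in all 5 libraries, beside 13.2% of all genes. The median over the list was -0.77, and against the narrower set it was -0.45. Aqp1 (a water channel), Ifitm1 (an interferon-induced membrane protein), H19 (an imprinted noncoding RNA), Fxyd6 (a regulator of the sodium pump), Cygb (cytoglobin) and Apod (apolipoprotein D) had median ratios of -3.15 to -2.36. Cxcl12, a chemokine that retains leukocytes, had -1.79. Of the 10 genes named as lower, Eln, Aqp1, Ifitm1, H19, Fxyd6 and Cygb met the level of 50 CPM only in the other cells.

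The 3 fibroblast lists of the rule also define other Dcn-positive states, here the cells with 3 or more genes of 1 list and at most 2 of each other list. Adventitial-list cells numbered 341, 281, 70 and 181 in Prepuberty 1, Prepuberty 2, DCIS 1 and DCIS 2, Il33-list cells 273, 289, 88 and 185, and matrix-list cells 129, 4, 57 and 55. Because the lists were part of the choice, the levels are given as a description. Ccl2, the monocyte chemokine next to Ccl7, was at 14933, 16553, 32044 and 17092 CPM in the chosen cells, at 10162, 14257, 9885 and 5594 CPM in the adventitial-list cells and at 11364, 12193, 18236 and 7699 CPM in the Il33-list cells. The chosen cells were thus highest of these 3 states in each gland, and the same order held for Ccl7 against both lists.

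The neutrophil chemokines did not set the chosen cells apart from the adventitial-list cells. Against all other Dcn-positive cells, 2 of 7 neutrophil-directed genes outside the rule were higher in all 5 libraries and 1 was lower. The shares over all genes were 2.54% and 13.2%. The median over the list was 0.67 beside -0.11 over all genes, and against the narrower set it was 0.59. In Prepuberty 1 and 2, Cxcl1 was at 3185 and 3885 CPM in the adventitial-list cells and at 2381 and 3622 CPM in the chosen cells. In DCIS 1 and 2 it was at 11265 and 10124 CPM against 14222 and 10666 CPM, so that the order of the 2 states turned. Cxcl3 in Prepuberty was at 556 and 417 CPM in the adventitial-list cells, above 176 and 144 CPM in the chosen cells. Saa3 was lower in the chosen cells than in the Il33-list cells of each gland, which had 5726, 9966, 1844 and 11123 CPM. Col1a1 was at 353, 53.1, 70.1 and 37.4 CPM in the adventitial-list cells, below the chosen cells in Prepuberty 1 and DCIS 1 and above them in the other two. In the Il33-list cells it was higher in each gland, at 764, 272, 701 and 360 CPM.

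Of the receptor genes, Il1r1, which encodes the IL-1 receptor, was at 74.0, 58.5, 70.4 and 43.4 CPM in the chosen cells. Il1rap, the partner chain of both receptors, was low, at 13.4, 1.98, 5.03 and 2.48 CPM. Il33 itself, a gene of the rule, was at 57.0, 15.5, 65.4 and 47.2 CPM in the chosen cells against 172, 293, 672 and 617 CPM in the Il33-list cells. Of 14 receptor and signalling genes of the IL-1 and IL-6 families measured against all other Dcn-positive cells, 5 were lower in all 5 libraries and none was higher in all, beside 13.2% and 2.54% of all genes.

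**Figure D2:**
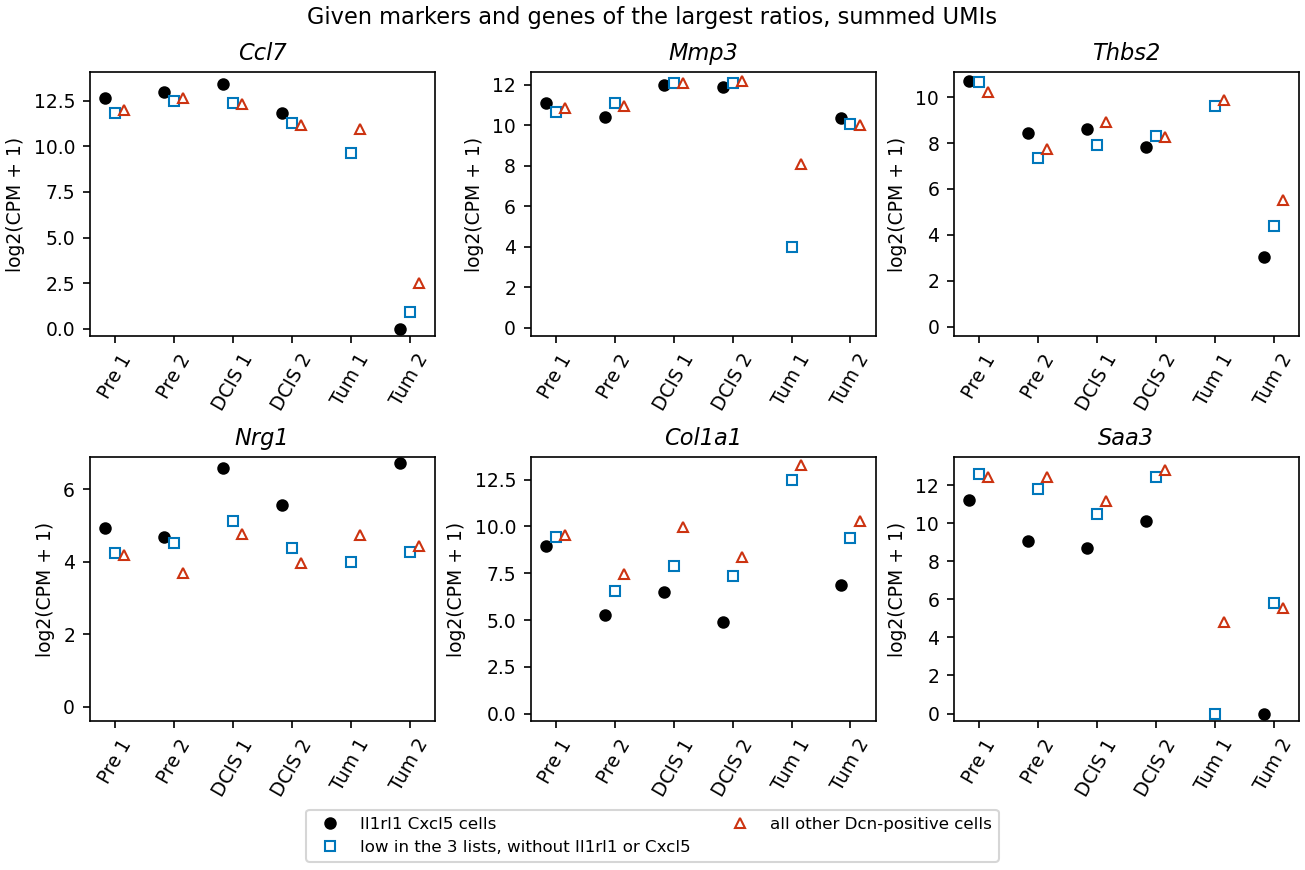
Level of 6 genes as log2(CPM + 1) of summed UMIs (y axis) in each library (x axis, Pre for Prepuberty and Tum for Tumor), for the Il1rl1 Cxcl5 cells (filled circles), cells low in the 3 lists without Il1rl1 or Cxcl5 (squares) and all other Dcn-positive cells (triangles); Tumor 1 has no chosen cell. Col1a1 and Saa3 are lower in the chosen cells of each library, with Col1a1 at 28.5 to 488 CPM, while Mmp3 does not separate the sets.

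Whether the chosen cells differed between DCIS and Prepuberty was tested on UMIs summed per library. Of 8298 genes outside the rule, 6 passed an adjusted p of 0.05 (0.0723%), and all 6 were higher in DCIS. The 6 were the neutrophil chemokines Cxcl1 and Cxcl2, Ptgs2 (the inducible cyclooxygenase of prostaglandin synthesis), Hspa1b (an inducible heat shock protein), Cd83 (a surface protein best known from mature dendritic cells) and Ankrd33b. Without adjustment, 646 genes (7.79%) had a p under 0.05. By CPM of total UMIs, without the TMM scaling of the test, both DCIS libraries lay above both Prepuberty libraries for 11.1% of the genes. They lay below them for 38.5%, while the median log2 fold change of the test over all genes was -0.10.

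Cxcl2 (chromosome 5, 90903871 to 90905938, plus strand, GRCm38) was at 452 and 731 CPM in Prepuberty 1 and 2 and at 8539 and 3962 CPM in DCIS 1 and 2. The groups did not overlap, and the log2 fold change was 3.72 ± 0.44 (SE, adjusted p = 0.0239). Its neighbour Cxcl1 (chromosome 5, 90891241 to 90893115, plus strand) rose from 2381 and 3622 CPM to 14222 and 10666 CPM, a log2 fold change of 2.37 ± 0.31 (adjusted p = 0.0276). Cxcl3, which lies in the same chemokine cluster, was at 176 and 144 CPM against 1343 and 567 CPM and did not pass (2.87 ± 0.49, adjusted p = 0.0908). Csf3, the neutrophil growth factor, was at 69.1 and 101 CPM against 60.3 and 127 CPM. Of the 7 neutrophil-directed genes outside the rule 4 were tested, and 2 passed, both higher, beside 0.0723% of all genes. The median over the 4 was 2.62 beside -0.10 over all genes. Cxcl5, a gene of the rule and so outside this count, had -0.79 ± 0.55, given as a description.

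The start regions of the 3 clustered chemokine genes are shown because these neighbours had the highest values of their list. Each line gives the bases from 150 to 51 before the RefSeq start (GRCm38.p6, plus strand), and capitals mark matches to the 10-base NF-kB consensus on either strand.
Cxcl1, chr5:90891095-90891194: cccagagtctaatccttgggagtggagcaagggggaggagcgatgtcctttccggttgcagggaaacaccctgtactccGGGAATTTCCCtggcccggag
Cxcl2, chr5:90903749-90903848: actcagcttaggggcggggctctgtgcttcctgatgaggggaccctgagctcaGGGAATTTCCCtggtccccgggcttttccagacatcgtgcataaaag
Cxcl3, chr5:90785951-90786050: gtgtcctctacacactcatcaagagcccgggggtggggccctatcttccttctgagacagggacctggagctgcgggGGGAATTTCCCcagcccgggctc
The consensus was searched in the 250 bases before each start, and 1281 of 32851 such windows (3.90%) held it. Each of the 3 genes held 2 matches, which overlap on opposite strands as 1 run, and that run is the same in all 3. Ptgs2, Hspa1b, Ankrd33b and Il1rl1 held none. No start region was available for Cd83, Cxcl5 and Ccl7, so they were not searched. A match is a description of the letters and not a binding site.

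Ptgs2 (chromosome 1, 150100031 to 150108227, plus strand) was at 18.6 and 22.9 CPM in Prepuberty and at 241 and 200 CPM in DCIS, a log2 fold change of 3.70 ± 0.43 (adjusted p = 0.0239). These levels rested on 57, 81, 48 and 161 UMIs. Hspa1b (chromosome 17, 34956436 to 34959238, minus strand) went from 18.6 and 14.7 CPM to 131 and 134 CPM (3.28 ± 0.45, adjusted p = 0.0276). Its near-identical neighbour Hspa1a can share reads with it, so the split between the pair is uncertain. Both genes kept the DCIS libraries apart from the Prepuberty libraries.

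Ankrd33b (chromosome 15, 31291478 to 31367726, minus strand) was at 32.9 and 25.4 CPM against 387 and 212 CPM, a log2 fold change of 3.63 ± 0.49 (adjusted p = 0.0276). Cd83 (chromosome 13, 43784775 to 43803132, plus strand) had only 5 and 5 UMIs in Prepuberty and 20 and 30 in DCIS, or 1.63 and 1.41 against 101 and 37.2 CPM (5.63 ± 0.72, adjusted p = 0.0276). Summed leukocyte markers moved with it, from 31.3 and 15.3 CPM in the Prepuberty chosen cells to 111 and 44.7 CPM in DCIS. Of the 15 leukocyte markers outside the rule, 5 were tested, and all 5 had values above 0. None of the 5 passed. Of the 11 epithelial markers outside the rule, 7 were tested, and all 7 had values above 0 (median 1.14, lowest adjusted p = 0.326). Their summed levels were 118 and 68.6 CPM in Prepuberty and 121 and 199 CPM in DCIS. The filter on low counts can admit a marker through 1 library where it is high, so these counts of signs are a description. The part of either marker list in these values was not tested.

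The calls depended on how the counts were scaled. With library totals in place of TMM the median fold change of all genes moved by 0.30, and none of the 6 genes passed (log2 fold changes 2.05 to 5.32, adjusted p = 0.0817 to 0.110). With cells thinned to 3000 UMIs none passed either (2.03 to 7.21, adjusted p = 0.0913 to 0.156), although all 6 stayed higher in DCIS. Without DCIS 1, Cxcl1 no longer passed (adjusted p = 0.1005), and without DCIS 2, Hspa1b did not (adjusted p = 0.0732). DESeq2 called all 6.

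No gene was called lower in DCIS by the main edgeR fit, which had state as its only term. Other settings did call genes lower, with 4 by DESeq2, 50 without the filter on low counts and 1 with doublets removed (Snai1, adjusted p = 0.0418). Without Prepuberty 2, a fit with 1 Prepuberty library, 47 genes were called lower, and without Prepuberty 1 there were 39. The 5 lowest p-values in that direction belonged to Snai1 (a transcription factor of mesenchymal cells), Id1 (a BMP-induced inhibitor of differentiation factors), Cited2, Fscn1 (an actin-bundling protein) and Naaa. Snai1 was at 82.8 and 120 CPM in Prepuberty and at 5.03 and 6.21 CPM in DCIS (-3.79 ± 0.58, adjusted p = 0.0577). Id1 was at 202 and 456 CPM against 10.1 and 32.3 CPM (-3.43 ± 0.58, adjusted p = 0.0908). Cited2 and Fscn1 had adjusted p-values of 0.165 and 0.226. Naaa had 75 and 69 UMIs in Prepuberty and 0 in both DCIS libraries. DESeq2 placed Snai1, Id1, Cited2 and Fscn1 past the threshold.

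**Figure D3:**
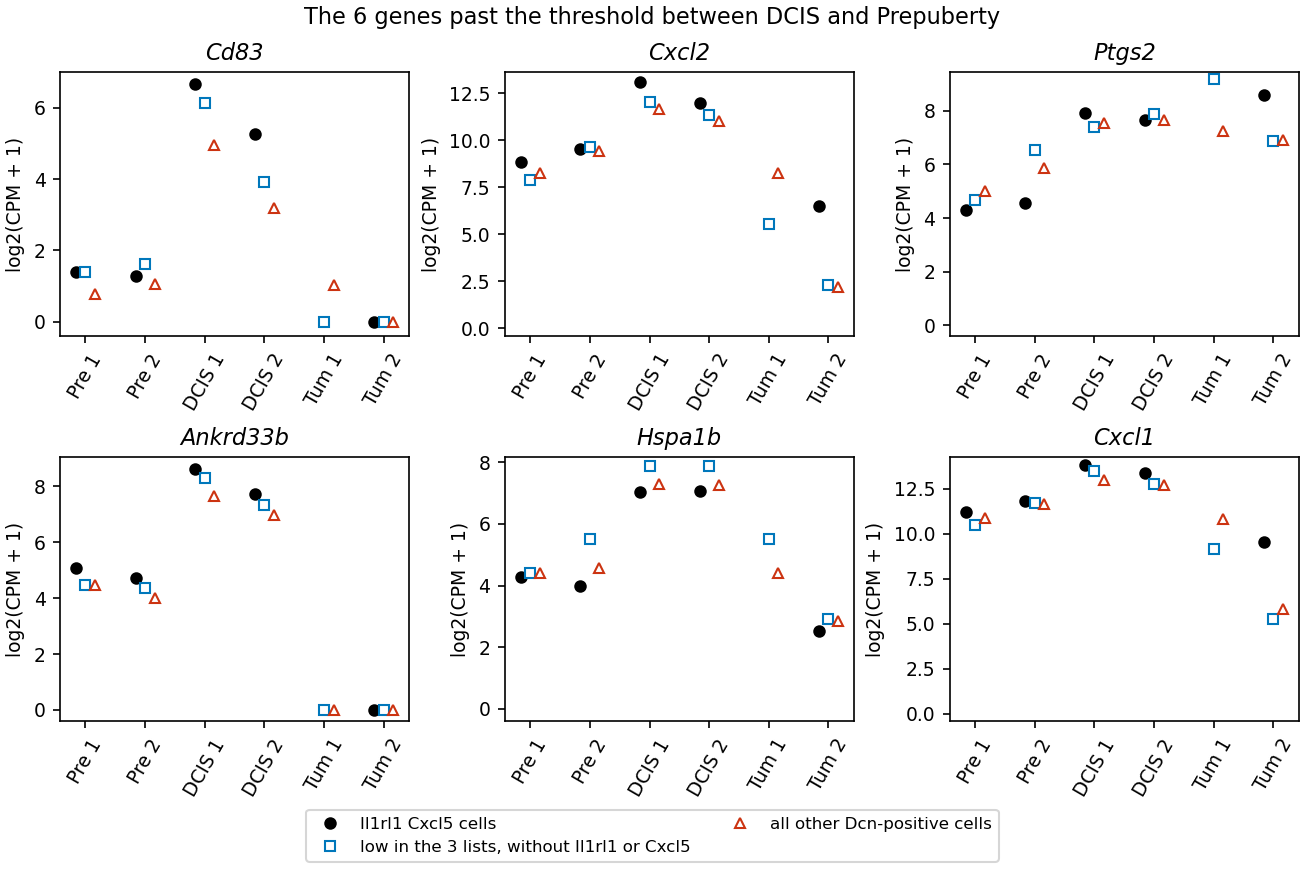
Level of the 6 genes past the threshold as log2(CPM + 1) of summed UMIs (y axis) in each library (x axis, Pre for Prepuberty and Tum for Tumor), for the Il1rl1 Cxcl5 cells (filled circles), cells low in the 3 lists without Il1rl1 or Cxcl5 (squares) and all other Dcn-positive cells (triangles). Both DCIS libraries lie above both Prepuberty libraries in each of the 6 panels and for all 3 sets, for example at 8539 and 3962 against 452 and 731 CPM for Cxcl2 in the chosen cells.

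The other inflammatory lists held no further call. Of 20 NF-kB regulators and targets, 18 had values above 0 and none passed (median 0.75, lowest adjusted p = 0.536). Over all 8298 genes, 44% of values were above 0 and 55.9% below. The IL-1 and IL-6 family ligands had 8 of 9 values above 0, with Il6 at 137 and 34.2 CPM in Prepuberty against 231 and 251 CPM in DCIS (adjusted p = 0.543). The 11 acute phase and complement genes had a median of 1.09 and 9 values above 0. C3, the central complement component, was at 59.0 and 110 CPM against 251 and 261 CPM (adjusted p = 0.251). Of 8 prostaglandin genes, Ptgs2 alone passed, beside 0.0723% of all genes, and 6 had values above 0.

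Among the CC chemokines 5 of 9 values were above 0, and Ccl7 did not separate the states (log2 fold change 0.31 ± 0.43, adjusted p = 0.843). Mmp3 was at 2191 and 1363 against 4018 and 3799 CPM (1.42 ± 0.35, adjusted p = 0.385), and 4 of 9 metalloproteinases had values above 0. In the collagens 11 of 16 values were below 0. All 12 cell cycle genes tested had values below 0 (median -1.60), and none passed. Their list summed to 119 and 134 CPM in Prepuberty against 60.3 and 53.4 CPM in DCIS. The DCIS sums rested on 12 and 43 UMIs, with 7 and 6 of the 14 genes at 0. In the other Dcn-positive cells 6 of 14 values were above 0 (median -0.23). Of 10 heat shock genes, Hspa1b passed, beside the same 0.0723% of all genes, and 8 values were above 0.

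**Figure D4:**
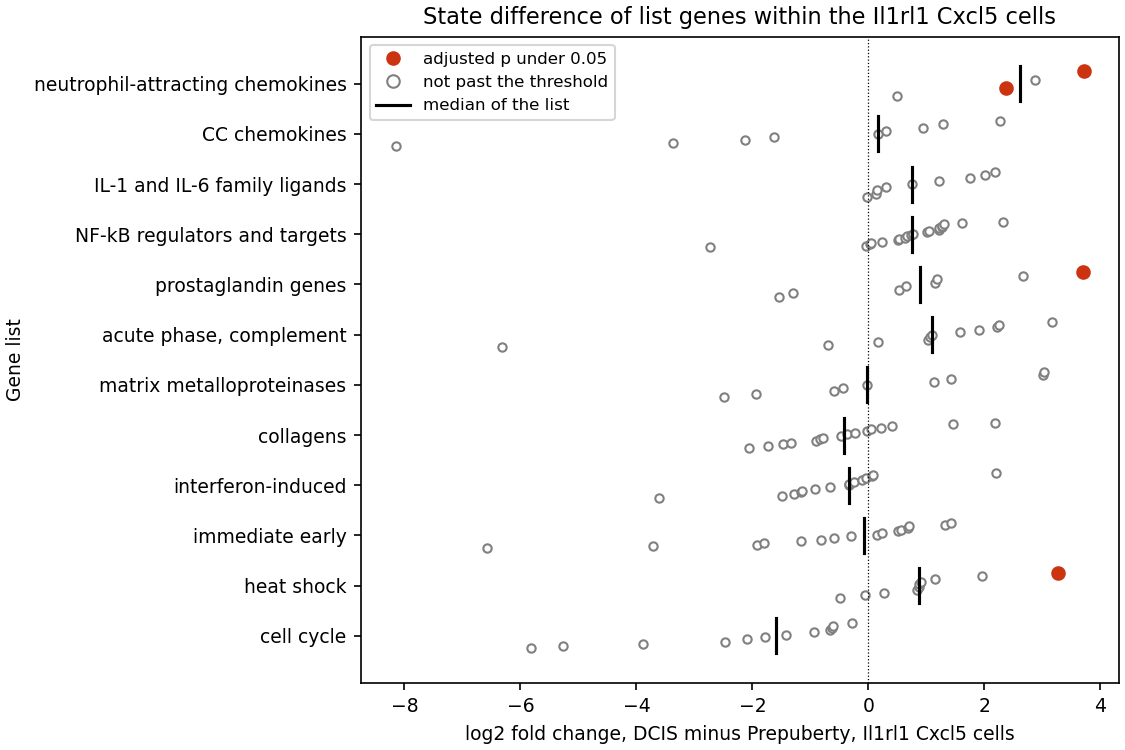
Log2 fold change of DCIS minus Prepuberty within the Il1rl1 Cxcl5 cells (x axis) for the genes of 12 lists (y axis), with 1 point per gene, filled where the adjusted p was under 0.05, and a bar at the median of each list. The filled points are Cxcl1, Cxcl2, Ptgs2 and Hspa1b. The neutrophil-attracting chemokines have the highest median of the 12 lists, 2.62 over the 4 genes tested. Genes of the rule, among them Cxcl5, are left out.

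Growth factors and redox genes were read in the same way. Nrg1, at 29.3 and 24.6 CPM in Prepuberty and 95.5 and 45.9 CPM in DCIS, had a log2 fold change of 1.60 ± 0.51 and did not pass (adjusted p = 0.520). Of 12 glutathione and NRF2 target genes 11 had values above 0 and none passed, with Gsta4 at 442 and 344 CPM against 407 and 1261 CPM. Of 15 interferon-induced genes 12 had values below 0 and none passed.

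The same 6 genes had values above 0 in the other Dcn-positive cells. There Cxcl2 was at 304 and 684 CPM in Prepuberty against 3236 and 2072 CPM in DCIS (2.69 ± 1.54, adjusted p = 0.688), and Ankrd33b had 3.38 ± 0.45 (adjusted p = 0.657). No gene of 11673 passed in those cells (0%) by edgeR, and 866 (7.42%) had an unadjusted p under 0.05. That fit included both tumours, and its SEs for Cxcl1 and Cxcl2 were larger than in the chosen cells.

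Whether the state difference itself was unequal in the 2 sets was tested as an interaction. Of 12176 genes, 93 passed (0.764%), of which 33 had a higher and 60 a lower difference in the chosen cells. Cxcl2 passed with 0.81 ± 0.16 (SE, log2, adjusted p = 0.000138) and Ptgs2 with 1.20 ± 0.27 (adjusted p = 0.00173). Cxcl3 passed as well (1.66 ± 0.22, adjusted p = 7.53e-11). Cxcl1 had 0.45 ± 0.13 and did not pass (adjusted p = 0.0553), and Cd83, Ankrd33b and Hspa1b had adjusted p-values of 0.878, 1 and 1. A passing difference was therefore found for 2 of the 6 genes. Ptgs2 in the other cells was at 31.6 and 57.4 CPM in Prepuberty and at 187 and 203 CPM in DCIS, so that the chosen cells were below the others in both Prepuberty libraries and above them in DCIS 1.

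Collagens went the other way. Of 17 tested, 6 passed the interaction test, all lower in the chosen cells, beside 0.493% of all genes in that direction. Among these 6, Col1a1 had the largest difference (-2.22 ± 0.27, adjusted p = 2.22e-12). Its log2 fold change from Prepuberty to DCIS was -2.05 in the chosen cells and 0.77 in the other Dcn-positive cells, and neither passed on its own. In the chosen cells it was at 488 and 38.1 CPM in Prepuberty against 90.5 and 28.5 CPM in DCIS, and without Prepuberty 1 its log2 fold change turned to 0.84. This test had 10 sums with 2 residual degrees of freedom and treated all genes as sharing 1 spread, so its p-values may be too small. Against the narrower set low in the 3 lists, which leaves out the matrix-list cells, 3 genes passed instead of 93. None of the 6 collagens was among them (-1.20 to -0.52, lowest adjusted p = 0.316), nor were Cxcl2 (0.38, adjusted p = 1), Cxcl3 (0.62, adjusted p = 1) and Ptgs2 (1.31, adjusted p = 0.292). With thinned cells Cxcl2 (0.79, adjusted p = 0.00285) and Col1a1 (-1.43, adjusted p = 0.00910) still passed. Ptgs2 did not (0.54, adjusted p = 0.9997), nor did Cxcl3 (0.43, adjusted p = 0.955) or the other 5 collagens.

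The 15 chosen cells of Tumor 2 did not resemble those of the glands. T-antigen UMIs were found in 7 of them, a share of 46.7%, and in 88 of the 207 other Dcn-positive cells of that library, 42.5%. Lum and Thy1, general fibroblast genes, had no UMI, and Ccl2 was at 2.38 CPM against 14933 to 32044 CPM in the chosen cells of the glands. The 14 cell cycle genes summed to 1455 CPM against 53.4 to 134 CPM in the glands, and to 1403 CPM in the other Dcn-positive cells of Tumor 2. Epithelial markers summed to 507 CPM in the 15 cells and 524 CPM in those others, so that both levels were close to those of the other Dcn-positive cells of that library. Spp1 (osteopontin), named after its values were seen, was at 19354 CPM in Tumor 2 and at 231, 6.50, 0 and 3.72 CPM in the glands. Cxcl1 was at 741 CPM, Cxcl2 at 90.5 CPM and Ptgs2 at 386 CPM, while Cd83 and Ankrd33b had no UMI. With 1 library, Tumor had no test, and leaving Tumor 2 out left the same 6 genes called between DCIS and Prepuberty.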

How the data were processed

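Single-cell suspensions of whole glands and tumours from 6 libraries were sequenced by the authors with a 10x Genomics 3′ kit. The deposited matrices hold raw UMI counts per gene and barcode, written by Cell Ranger 3.0.2 per the file headers. The submitters' processing notes name mm10, Cell Ranger, STAR, SAMtools, Picard and Salmon for the series, with no roles. No deposited file gives cell types, and all 6 matrices were used.

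The rule, the gene lists and the tests were chosen with earlier results of these data known. No doublets were removed in the main set. UMIs were summed per library and cell set, and libraries with at least 10 chosen cells entered. States were compared with the two-sided quasi-likelihood F test of edgeR 4.0.16 (R 4.3.3, TMM, filterByExpr, 1 fit over all states) and Benjamini-Hochberg adjustment at 0.05. Genes of the rule were left out of all counts. SEs come from the F statistic. The interaction fit had the library, the set and the set by state as terms. Ratios between sets had no test. Shares were compared with exact permutation tests, adjusted over 4 comparisons.

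The named genes were the given markers and list members, the 10 highest and 10 lowest median ratios with 1 sign in every library and a mean of at least 50 CPM, and the state genes past the threshold without overlap and a mean of at least 20 CPM, or else the 5 lowest p-values of a direction. Alternatives were DESeq2 1.42.0, no filter, cells thinned to 3000 UMIs, doublets removed (Scrublet in scanpy 1.11.5), no T-antigen cells, a mitochondrial limit of 5%, other Dcn limits, a replicate block, leaving out each library, and library totals, which was added after the data were seen. On counts simulated for the DCIS against Prepuberty comparison of the chosen cells (7534 genes), 6% of 2-fold, 52% of 4-fold, 94% of 8-fold and 100% of 16-fold changes were recovered, with 6 false calls among the unchanged genes. Coordinates are from GENCODE vM21 (GRCm38), matched by gene ID for 36 of 36 genes, and start regions are from RefSeq (GRCm38.p6).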

Additional observations from a re-analysis of the deposited data

Results flagged for a closer look

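By the edgeR interaction test, the state difference from Prepuberty to DCIS was unequal in the chosen and the other Dcn-positive cells for 11 genes. These are from the genes named between states and the lists of given markers, neutrophil chemokines, prostaglandin genes and collagens. Other genes passed too, among them Spp1 (log2 -5.45), described below, and Cxcl14 (log2 -2.08). The CC chemokines and the other chemokines, which hold Cxcl14, each had 1 gene higher and 1 lower. The difference (chosen minus other, log2) was 0.81 for Cxcl2, 1.66 for Cxcl3 and 1.20 for Ptgs2. It was -2.22 for Col1a1, -1.46 for Col1a2, -1.42 for Col3a1, -1.61 for Col6a1, -1.39 for Col6a2 and -2.02 for Col15a1. For Thbs2 it was -0.997 (adjusted p = 0.000975), with fold changes of -1.47 and -0.64 in the 2 sets. Snai1 had -2.31 (adjusted p = 0.00243), with -3.79 in the chosen and -1.42 in the other cells. With thinned cells Cxcl2 and Col1a1 alone of these 11 genes passed, with Snai1 at -1.67 (adjusted p = 0.849) and Thbs2 at -0.42 (adjusted p = 0.976). Against the narrower set none of the 11 passed, with Snai1 at -2.53 (adjusted p = 0.0619). No group had enough libraries for a test of outlying samples.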

How the results depend on the processing

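All 4 differences in share kept their direction under each of the 14 alternatives (with so few libraries no p could pass), from -15.3 to -5.48 percentage points for DCIS against Prepuberty and from -10.3 to -0.31 for Tumor against DCIS. The state test within the chosen cells, with 6 calls, gave 8 with doublets removed, 6 without T-antigen cells, at the 5% mitochondrial limit and in the 4 libraries alone, 27 with DESeq2 (23 higher, 4 lower), 128 without the filter on low counts (78 higher, 50 lower), and 0 with thinned cells and with library totals. Leaving out 1 library gave 6 to 176 calls, with 176 without Prepuberty 1 (39 lower), 86 without Prepuberty 2 (47 lower), 14 without DCIS 2 and 7 without DCIS 1. These 4 fits leave a state with 1 library, which is assumed to vary like the other. The replicate block gave 405 calls (135 lower). The deviations of libraries with the same number correlated (r = 0.415 over 3235 genes), but the labels name no pairing and there are only 2 pairs, so the libraries share no more than a number. The interaction calls went from 93 to 79 without the filter, 10 with thinned cells and 3 against the narrower set. Against the narrower set the interaction value of Ankrd33b turned to -0.18, and that of Id1 to -0.42 (thinned cells: -0.73).

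Against the other Dcn-positive cells, genes at least 2-fold higher went from 0 to 2 with thinned cells and to 0 to 1 with 1 library left out. Genes at least 2-fold lower went from 35 to 217 with thinned cells, 23 against the narrower set, 7 with 5 CPM added, and 42 to 121 with 1 library left out (121 without Prepuberty 1, 81 without Prepuberty 2, 72 without Tumor 2). Without a limit on the 3 lists the rule chose 1469 cells. The cause of these changes was not tested. Depth limits the DCIS 1 values most, where 198854 UMIs make 3 UMIs equal to 15.1 CPM.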

Other observations

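The gene with the lowest p in the interaction test, named after its values were seen, was Spp1 (osteopontin, a secreted matrix protein). In the chosen cells of Prepuberty 1, Prepuberty 2, DCIS 1 and DCIS 2 it had 710, 23, 0 and 3 UMIs, or 231, 6.50, 0 and 3.72 CPM. In the other Dcn-positive cells it was at 184, 69.5, 686 and 149 CPM, so that the 2 sets were close only in Prepuberty 1. The state difference within either set did not pass on its own (adjusted p = 0.5005 in the chosen and 0.674 in the other cells, edgeR).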
